A study of Mus musculus with 9 samples.

Results

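Of 10 immediate early genes examined in B16.SIY mouse melanoma cells after knockdown of Decr2, 9 were among the 10762 genes analysed. They were chosen by name as subunits of the AP-1 transcription factor (Fos, Jun, Junb, Jund), the zinc finger factor Egr1, the NR4A nuclear receptors (Nr4a1, Nr4a2, Nr4a3) and Ier2. Fosl1 was not analysed here. B16.SIY is a C57BL/6 melanoma line that carries the antigen SIY joined to dsRED, grown in culture. The control group was a stable line infected with lentivirus for a control hairpin, and the other groups were stable lines carrying Decr2 shRNA1 or Decr2 shRNA2, a pair of hairpins against the peroxisomal enzyme Decr2. All lines had gone through lentiviral infection and puromycin selection, and each group had 3 libraries, numbered 0, 1 and 2 in the sample titles. Since a group is 1 stable line, an effect of the hairpin and a property of the line cannot be told apart, and no label says that the libraries came from separate cultures, so each p-value rests on library-to-library spread that could be technical.

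Immediate early genes are transcribed within minutes of a stimulus such as a growth factor, calcium, cAMP or stress, without new protein synthesis, through factors such as SRF with its ETS partners, CREB and MEF2 that already sit at their promoters. Fos and Jun proteins pair through a leucine zipper to form AP-1. Egr1 binds GC-rich DNA, and NR4A proteins are orphan nuclear receptors whose activity is set mainly by how much is made. In melanocytes, Nr4a genes are induced by melanocortin signalling through cAMP.

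All 3 NR4A genes rose with shRNA1 and 1 of them, Nr4a3, also with shRNA2, whereas no AP-1 gene passed the test with either hairpin when libraries were compared without regard to their digit. With a replicate block, which compares libraries of the same digit, Junb also passed with shRNA1 (adjusted p = 0.016), Egr1 with each hairpin (0.00333 and 0.0434) and Nr4a1 with shRNA2 (0.0394). Without the libraries numbered 0, Junb was higher and Jun and Jund were lower with shRNA1 (0.0338, 0.00657 and 0.0206). Nr4a3 rose 2.45-fold with shRNA1 (95% interval 1.57 to 3.84) and 2.17-fold with shRNA2 (1.38 to 3.39). Nr4a1 rose 1.78-fold (1.55 to 2.05) and Nr4a2 1.97-fold (1.42 to 2.74) with shRNA1, and they stood at 1.24-fold (1.08 to 1.42) and 1.42-fold (1.03 to 1.97) of control with shRNA2, where neither passed. In all 3 of 9 members rose with shRNA1 and 1 of 9 with shRNA2, and 0 fell in either comparison. Over all genes 6.92% rose and 5.49% fell with shRNA1, and 7.27% rose and 5.67% fell with shRNA2 (limma, adjusted p under 0.05 over the whole table). Both comparisons use the same 3 control libraries.

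The promoters of the NR4A genes are printed because these are the members that rose, with Fos and Jun beside them. Each is the stretch before the RefSeq transcription start (GRCm38.p6), 250 bases long except for Nr4a3, where it ends after 98 bases at the first exon of the GENCODE gene. Capitals mark the cAMP response element half-site TGACG or its reverse complement CGTCA. The stretches are, in the order printed, chr15:101266596-101266845 (plus strand), chr2:57124004-57124253 (minus strand), chr4:48045055-48045152 (plus strand), chr12:85473640-85473889 (plus strand) and chr4:95052223-95052472 (minus strand). The Nr4a1 stretch lies within the longer GENCODE gene and outside its exons.
Nr4a1: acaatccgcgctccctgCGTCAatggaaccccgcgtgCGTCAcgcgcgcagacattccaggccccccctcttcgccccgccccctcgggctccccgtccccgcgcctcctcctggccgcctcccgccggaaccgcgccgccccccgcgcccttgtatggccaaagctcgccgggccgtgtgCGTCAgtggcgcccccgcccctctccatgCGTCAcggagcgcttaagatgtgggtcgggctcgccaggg
Nr4a2: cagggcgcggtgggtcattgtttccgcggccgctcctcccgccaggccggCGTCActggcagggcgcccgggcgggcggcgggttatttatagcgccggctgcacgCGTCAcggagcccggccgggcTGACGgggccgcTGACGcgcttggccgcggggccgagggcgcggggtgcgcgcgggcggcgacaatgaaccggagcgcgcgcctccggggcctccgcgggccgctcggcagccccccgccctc
Nr4a3: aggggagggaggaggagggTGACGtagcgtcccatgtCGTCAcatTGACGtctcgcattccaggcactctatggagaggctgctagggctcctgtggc
Fos: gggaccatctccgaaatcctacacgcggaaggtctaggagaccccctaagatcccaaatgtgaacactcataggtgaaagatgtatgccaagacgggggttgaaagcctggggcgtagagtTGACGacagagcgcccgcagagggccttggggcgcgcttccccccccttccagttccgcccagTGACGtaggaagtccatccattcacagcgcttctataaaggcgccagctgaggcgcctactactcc
Jun: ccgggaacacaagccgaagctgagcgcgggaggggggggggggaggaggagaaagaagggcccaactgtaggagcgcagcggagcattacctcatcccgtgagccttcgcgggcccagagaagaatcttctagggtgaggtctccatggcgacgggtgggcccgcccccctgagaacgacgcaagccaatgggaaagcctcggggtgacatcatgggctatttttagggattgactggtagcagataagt

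RefSeq promoters of 7 members were examined (Fos, Jun, Junb, Jund and the NR4A genes). Those of Egr1, Ier2 and Fosl1 were not examined. Over the full 250 bases, Nr4a1, Nr4a2 and Nr4a3 each held 4 half-sites counted on both strands (3 of them in the shorter stretch printed for Nr4a3), Fos held 2, Junb held 1, and Jun and Jund held 0. The Jund window starts upstream of the GENCODE gene, with its end at 70697738 and the gene from 70698949, so its count is for the RefSeq start only. Of 32851 promoter windows of this length 17.8% held at least 1 half-site, 3.9% at least 2 and 0.137% at least 4. The full element TGACGTCA, which overlaps the half-site and occurred in 1.55% of windows, matched in none of the 7. The AP-1 motif TGANTCA (6.75% of windows), the NR4A motif AAAGGTCA (1.34%) and the CArG box of SRF (1.47%) also matched in none of these 7 windows. The EGR motif GCGNGGGCG, at 4.7% of windows, matched once in Nr4a1 and once in Nr4a2, and TATAAA, at 12.4%, matched once in Fos and once in Nr4a2. Motifs were searched on both strands of these 250 bases only, so sites elsewhere were not examined. A match or its absence describes letters in the window, not binding.

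Decr2 stood at 47.6% of control with shRNA1 and 15.0% with shRNA2 (limma, adjusted p = 0.0195 and 0.000568), and no hairpin library reached the control range. The fall with shRNA1 no longer passed when shRNA1 replicate 1 was left out (adjusted p = 0.058), nor when either of control replicates 1 and 2 was (0.0872 and 0.0537). Of 10 melanocyte markers 9 were listed, and of 33 markers of leukocytes, stroma, endothelium, epithelium and erythroid cells 5 were. In the fit of all libraries without the replicate block, 0 of these listed markers passed with either hairpin. Over all genes 12.4% passed with shRNA1 and 12.9% with shRNA2. The read depth is unknown. Libraries numbered 0 stood apart from libraries 1 and 2 across the groups, with 30.1% of all genes past the test for that difference, and 3 of the 9 members were among them: Egr1 at -0.83, Junb at 0.61 and Nr4a3 at 0.57 on the log2 scale. The replicate block is therefore given beside the members' results and list counts that it changes. Library 0 carried most of this: across groups, the deviations of libraries 1 and 2 correlated at 0.128 to 0.531 between different digits and at 0.126 to 0.505 within a digit.

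Melanocyte markers moved with the hairpins once library 0 was set aside. Without the libraries numbered 0, 8 of the 9 listed melanocyte markers fell with shRNA1 and 7 with shRNA2, among them Pmel, a melanosome matrix protein, by 0.69 and 0.64 (adjusted p = 2.63e-05 and 3.65e-05) and Mlana, a melanosome protein, by 0.56 and 0.95 (0.000141 and 9.39e-06). That fit used only libraries 1 and 2 of each group. Of all genes 34.5% passed in it with shRNA1 (17.6% higher) and 37.3% with shRNA2 (19.2% higher). The summed linear level of the 9 melanocyte markers was 19857, 17617 and 17523 in control libraries 0, 1 and 2, 19118, 13397 and 13629 with shRNA1, and 23087, 13595 and 13280 with shRNA2. Of the 9, 8 were higher in libraries numbered 0 (adjusted p under 0.05), where 30.1% of all genes passed in either direction. With the replicate block Sox10 fell with shRNA2 and in the average (adjusted p = 0.0441 and 0.0449) and Mlana with shRNA2 (0.047). Of the 5 listed markers of other cell types, the collagen gene Col1a1 rose with shRNA1 by 1.71 under the block (adjusted p = 0.0199; 0.0175 in the average), and by 2.33 and 1.72 with shRNA1 and shRNA2 without the libraries numbered 0 (0.00169 and 0.0062), where Plvap also rose with shRNA2 (0.0217). Col1a1 was at a low level, with log2 values of 1.14, -1.13 and -1.33 in control libraries 0, 1 and 2. They were 1.59, 1.23 and 0.97 with shRNA1 and 1.31, 0.42 and 0.56 with shRNA2, so control library 0 lay within the hairpin range. The 5 listed markers summed to between 25.8 and 38.7 in the controls, 30.8 and 33.4 with shRNA1 and 27.2 and 30.3 with shRNA2. The part of these shifts in the members' values was not tested.

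**Figure D1:**
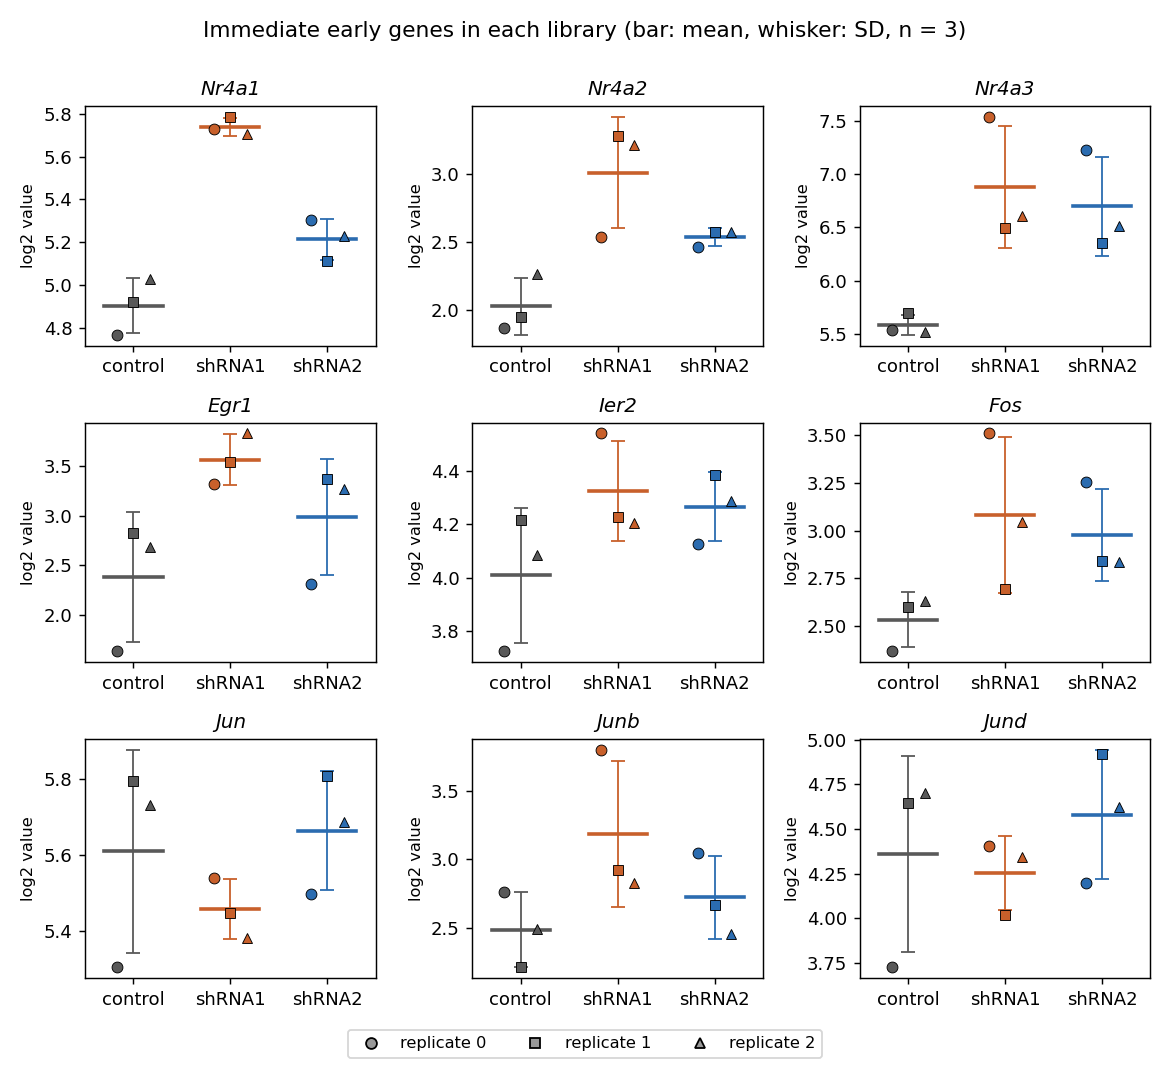
Deposited log2 value of each of the 9 immediate early genes in every library, by group, with the marker shape giving the replicate digit; horizontal bars are means and whiskers SD (n = 3), and each panel has its own vertical scale. All hairpin libraries lie above all controls for Nr4a1, Nr4a2, Nr4a3 and Fos, while Jun, Jund and Ier2 overlap between groups.

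Nr4a3 (ENSMUSG00000028341, chromosome 4, 48045153 to 48086447 on the plus strand in GRCm38) encodes NOR1, a receptor that is also a tumour suppressor in blood cells. Its log2 values were 5.54, 5.69 and 5.52 in control libraries 0, 1 and 2. They were 7.54, 6.49 and 6.61 with shRNA1 and 7.23, 6.35 and 6.52 with shRNA2. All shRNA1 libraries lay above all controls, as in 17.3% of all genes, and so did all shRNA2 libraries (20.1%). The shRNA1 and shRNA2 libraries overlapped each other. Library 0 was the highest of each hairpin group but not of the controls. On the log2 scale the change was 1.29 with shRNA1 (SE 0.29, adjusted p = 0.022) and 1.11 with shRNA2 (SE 0.29, adjusted p = 0.0361). Nr4a3 was the member called with each hairpin in the same direction, as 7.55% of all genes were (4.54% higher and 3.01% lower). The call with shRNA1 was lost without any 1 of the control libraries (adjusted p from 0.0522 to 0.0833), and that with shRNA2 was lost without any 1 control or shRNA2 library (0.0608 to 0.116). Without the 3 libraries numbered 0 the changes were 0.94 and 0.83 and passed (adjusted p = 0.000145 and 0.000283).

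Nr4a1 (ENSMUSG00000023034, chromosome 15, 101254269 to 101274795, plus strand) encodes Nur77, which can act in the nucleus as a receptor and at mitochondria in cell death. Control libraries 0, 1 and 2 held 4.77, 4.92 and 5.03. With shRNA1 the values were 5.73, 5.78 and 5.71, and with shRNA2 they were 5.30, 5.11 and 5.23. The 3 groups formed separate bands, with controls lowest, shRNA2 between and shRNA1 highest, and the SD within a group was at most 0.13. With shRNA1 the log2 change was 0.83 (SE 0.09, adjusted p = 0.00166), a call that held in all 16 alternative settings tried for it. With shRNA2 it was 0.31 (SE 0.09) and missed the threshold (adjusted p = 0.0518); with the replicate block it passed (adjusted p = 0.0394), as it did without shRNA1 replicate 0 (0.0355).

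The hairpins differed from each other in Nr4a1, which was 0.53 lower on the log2 scale with shRNA2 than with shRNA1 (SE 0.09, adjusted p = 0.0477). In that comparison 0.455% of all genes passed (0.232% lower), and no other member did. All 3 shRNA2 libraries lay below all 3 shRNA1 libraries, as in 6.68% of all genes. Nr4a1 was thus closer to control in the line with the lower Decr2 value. This call was narrow: it was lost without an intensity trend in the variance prior (adjusted p = 0.0596), with only the groups compared (0.133) and without any 1 library other than control replicate 0 (0.0506 to 0.238). The mean of 7 of 9 members was lower with shRNA2 than with shRNA1, the exceptions being Jun and Jund, and 48.7% of all genes were lower. Of these 7 differences, those of Fos, Nr4a3 and Ier2 turned sign when shRNA1 replicate 0 was left out.

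Nr4a2 (ENSMUSG00000026826, chromosome 2, 57106830 to 57124003, minus strand) encodes Nurr1, known for its role in dopamine neurons. Its control values were 1.87, 1.95 and 2.26. They stood at 2.54, 3.27 and 3.21 with shRNA1 and at 2.46, 2.57 and 2.57 with shRNA2. Every hairpin library exceeded every control, and shRNA1 library 0 lay among the shRNA2 libraries. The log2 change was 0.98 with shRNA1 (SE 0.21, adjusted p = 0.0197) and 0.51 with shRNA2 (SE 0.21, adjusted p = 0.144). The shRNA1 call was lost with only the groups compared (adjusted p = 0.0561) and without control replicate 1 (0.0788), shRNA1 replicate 1 (0.0626) or shRNA1 replicate 2 (0.0659). For shRNA2, the change passed without the libraries numbered 0 (0.47, adjusted p = 0.0418) and without shRNA1 replicate 0 (0.51, adjusted p = 0.0355).

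In the average of both hairpins the 3 NR4A genes rose and no other member passed without the block, against 9.69% of all genes that rose and 7.89% that fell. The median log2 change of the 9 members was 0.50, beside a median of -0.0006 over all genes. Of the members 5 had an unadjusted p under 0.05 in this average, Egr1 and Fos besides the NR4A genes, beside 33.2% of all genes. With the replicate block Egr1 and Junb also passed in the average (adjusted p = 0.00439 and 0.035). Nr4a1 changed by 0.57 (SE 0.08, adjusted p = 0.00259), Nr4a2 by 0.74 (SE 0.18, adjusted p = 0.0231) and Nr4a3 by 1.20 (SE 0.25, adjusted p = 0.0124). Without control replicate 1, or without control replicate 2, Nr4a1 alone passed. The Nr4a2 call was also lost without control replicate 0 (adjusted p = 0.0738) or shRNA2 replicate 1 (0.0511). In the authors' deposited table the same genes passed as here: Nr4a1, Nr4a2 and Nr4a3 with shRNA1 (adjusted p = 0.00216, 0.0295 and 0.0264) and Nr4a3 with shRNA2 (0.0422).

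**Figure D2:**
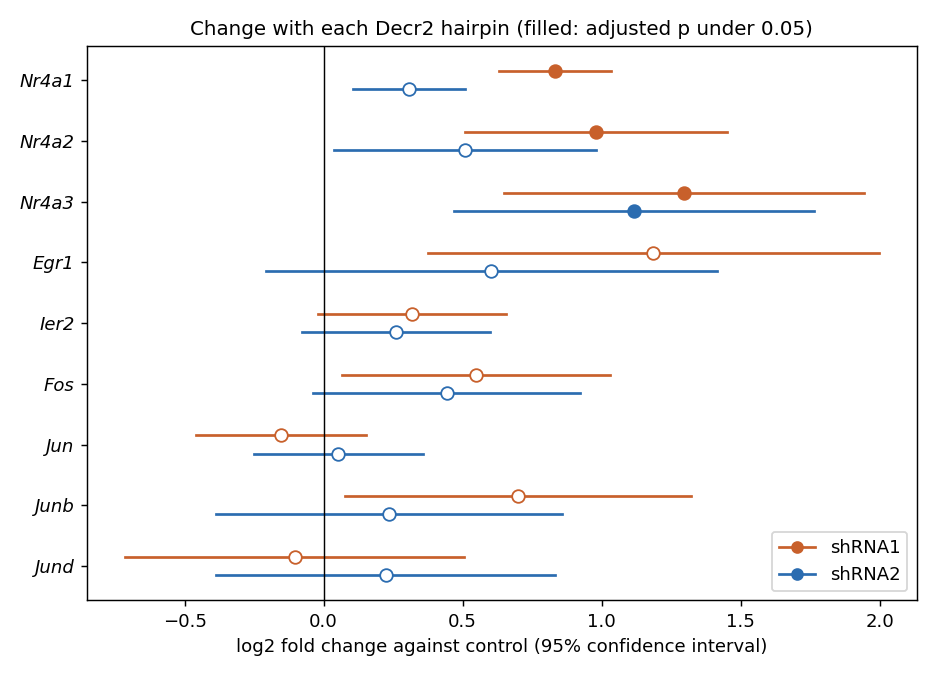
Log2 fold change of each immediate early gene against control for shRNA1 and shRNA2, with 95% confidence intervals from limma; filled points have an adjusted p under 0.05. The NR4A intervals lie above 0 with either hairpin, while the intervals of Jun and Jund span 0.

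Egr1 (ENSMUSG00000038418), a factor induced by growth factor signalling through ERK, missed the threshold with either hairpin. The controls were at 1.63, 2.83 and 2.69. With shRNA1 the libraries held 3.33, 3.54 and 3.83, all above the controls, and with shRNA2 they held 2.31, 3.37 and 3.27, which overlapped them. Library 0 was the lowest in every group. The log2 change was 1.19 with shRNA1 (SE 0.36, adjusted p = 0.062), 0.60 with shRNA2 (SE 0.36, adjusted p = 0.305) and 0.89 in the average (SE 0.31, adjusted p = 0.0777). Each hairpin library was above the control of its own digit, and with the replicate block Egr1 passed in all 3 comparisons (SE 0.18, adjusted p = 0.00333 with shRNA1; SE 0.18, 0.0434 with shRNA2; SE 0.16, 0.00439 in the average). It also passed without the 3 libraries numbered 0, at 0.93, 0.56 and 0.75 (adjusted p = 0.00144, 0.0122 and 0.00155). Leaving out shRNA2 replicate 0 alone brought it past the threshold with shRNA1 (adjusted p = 0.0381) and in the average (0.0319).

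Fos (ENSMUSG00000021250, chromosome 12, 85473890 to 85477273, plus strand), the founding Fos family subunit, had control values of 2.37, 2.60 and 2.63. The values were 3.51, 2.70 and 3.05 with shRNA1 and 3.25, 2.84 and 2.84 with shRNA2. Although no hairpin library fell within the control range, the change did not pass with shRNA1 (0.55, SE 0.21, adjusted p = 0.129), with shRNA2 (0.44, SE 0.21, adjusted p = 0.205) or in the average (0.50, SE 0.19, adjusted p = 0.0952). The libraries numbered 0 held the largest same-digit differences, 1.14 and 0.88, and without those libraries the changes were 0.25 and 0.22. In the average Fos passed without shRNA1 replicate 1 (0.59, adjusted p = 0.0463).

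Among the Jun genes, Junb (ENSMUSG00000052837, chromosome 8, 84974484 to 84978718, minus strand), a Jun protein that often restrains growth, stood at 2.76, 2.21 and 2.49 in the controls, 3.80, 2.92 and 2.83 with shRNA1, and 3.05, 2.67 and 2.45 with shRNA2. The shRNA1 libraries all lay above the controls and the shRNA2 libraries overlapped them. Its log2 change was 0.70 with shRNA1 (SE 0.28, adjusted p = 0.134) and 0.24 with shRNA2 (SE 0.28, adjusted p = 0.624). With the replicate block it passed with shRNA1 (SE 0.16, adjusted p = 0.016) and in the average (0.47, SE 0.14, adjusted p = 0.035), and without the libraries numbered 0 with shRNA1 (0.53, adjusted p = 0.0338).

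Jun (ENSMUSG00000052684, chromosome 4, 95049034 to 95052222, minus strand), the main partner of Fos, had log2 values of 5.30, 5.79 and 5.73 in the controls, 5.54, 5.45 and 5.38 with shRNA1, and 5.50, 5.81 and 5.69 with shRNA2. The groups overlapped in both comparisons with control, and the change was -0.15 with shRNA1 (95% interval -0.46 to 0.15, adjusted p = 0.493) and 0.05 with shRNA2 (-0.25 to 0.36, adjusted p = 0.835). Jund (ENSMUSG00000071076, chromosome 8, 70698949 to 70700616, plus strand), a Jun protein present in resting cells, was at 3.72, 4.64 and 4.70 in the controls, 4.40, 4.02 and 4.34 with shRNA1, and 4.20, 4.92 and 4.62 with shRNA2. Its change was -0.10 with shRNA1 (95% interval -0.71 to 0.51, adjusted p = 0.837) and 0.22 with shRNA2 (-0.39 to 0.83, adjusted p = 0.639). For both genes control library 0 was the lowest of all 9 libraries, and shRNA1 library 0 was above it while shRNA1 libraries 1 and 2 were below the controls of their digits. Without the libraries numbered 0, Jun fell by 0.35 and Jund by 0.50 with shRNA1 (adjusted p = 0.00657 and 0.0206); with shRNA2 they stood at -0.02 and 0.10 (adjusted p = 0.883 and 0.591).

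Ier2 (ENSMUSG00000053560, chromosome 8, 84661331 to 84662852, minus strand), a small nuclear protein of the serum response, held 3.72, 4.22 and 4.08 in the controls, 4.54, 4.23 and 4.21 with shRNA1, and 4.13, 4.39 and 4.29 with shRNA2. The groups overlapped. Its log2 change was 0.32 with shRNA1 (95% interval -0.02 to 0.66, adjusted p = 0.199) and 0.26 with shRNA2 (-0.08 to 0.60, adjusted p = 0.288).

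Counting libraries in place of the test, 6 of 9 members had all shRNA1 libraries above all controls, beside 17.3% of all genes (33.9% outside the control range in 1 direction), and 4 of 9 had all shRNA2 libraries above them, beside 20.1% of all genes (38.8%). No member had all libraries of a hairpin below the controls. With the replicate block 5 of 9 members passed with shRNA1 (24.6% of all genes, 13.4% higher), 3 of 9 with shRNA2 (24.0%, 13.4% higher) and 5 of 9 in the average (30.3%, 16.2% higher), all of them higher. Without the libraries numbered 0 7 of 9 passed with shRNA1, 5 of them higher, with Jun and Jund lower (34.5% of all genes, 17.6% higher). With shRNA2 3 of 9 passed, all higher (37.3%, 19.2% higher), and in the average 5 of 9, 4 of them higher and Jun lower (41.4%, 20.9% higher). Between the hairpins 4 of 9 passed without these libraries, Nr4a1 and Nr4a2 lower and Jun and Jund higher with shRNA2 (8.87%, 3.92% higher).

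**Figure D3:**
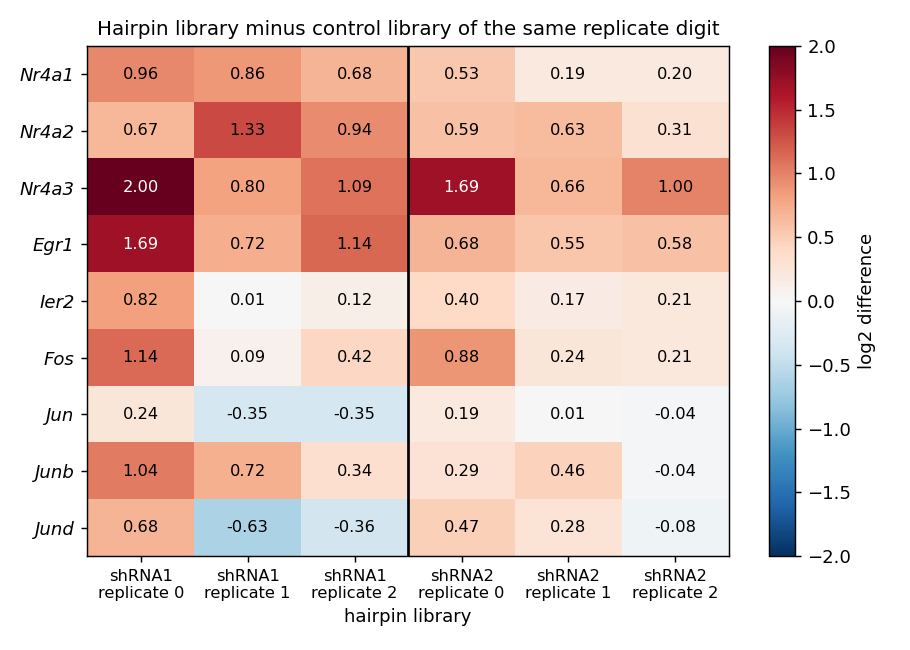
Difference in log2 value between each hairpin library and the control library of the same replicate digit, for the 9 immediate early genes (rows) and 6 hairpin libraries (columns); red is higher than control. The NR4A genes, Egr1, Fos and Ier2 are above 0 in all 6 columns, while Jun and Jund are above 0 with shRNA1 only in library 0. Both hairpins are set against the same 3 control libraries, and the share of all genes above 0 in all 6 columns was not counted.

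For 4 members the genes with the most similar profile were taken by the root mean square (RMS) difference of log2 values over the 9 libraries, each gene centred on its own mean, among non-member genes that ranged by at least 1. They were Cdk20, Pla2g4a and Neurl2 for Nr4a1 (RMS 0.110, 0.111 and 0.129), and Fah, Tifa and Fam84b for Fos (0.105, 0.130 and 0.135). For Egr1 they were Slitrk2, Bbc3 and Rasgrp2, at a larger distance (0.258, 0.286 and 0.290). For Jun they were Zfp771, H2afj and Lcp1 (0.177, 0.198 and 0.212), but Jun itself ranged by only 0.50, less than the genes compared with it. The profiles share libraries and the digit difference, so likeness is a description.

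Genes around the members were counted in the average of both hairpins, where 17.6% of all genes passed. Of 13 measured leucine zipper partners of AP-1, 3 rose and 3 fell. Jdp2, which pairs with Jun and represses AP-1 sites, rose by 1.06 (SE 0.14, adjusted p = 0.00233), and Nfe2l1, a factor for proteasome genes, by 0.62 (SE 0.13, adjusted p = 0.0141). The Maf proteins that fell were Maff by 0.48, Maf by 0.56 and Mafk by 0.31 (adjusted p = 0.0125, 0.0151 and 0.0289). Mafa, another Maf factor, also rose by 1.01 (SE 0.28, adjusted p = 0.0381); it falls outside the naming rule and was named after its value was seen. The median of this list was 0.02. With shRNA1 alone 2 rose and 0 fell (6.92% and 5.49% of all genes). With shRNA2 alone 2 rose and 3 fell (7.27% and 5.67%). The replicate block gave 7 of the 13 (30.3% of all genes). Without control replicate 1 or 2, 1 of the 13 passed, and the share of all genes that passed was then 5.72% or 5.86%.

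Of 20 other measured immediate early genes 2 rose and 3 fell, and the list had a median of -0.06. With shRNA1 alone 1 rose and 4 fell (6.92% and 5.49% of all genes). With shRNA2 alone 1 rose and 1 fell (7.27% and 5.67%). Gadd45b, a stress and growth arrest gene, rose by 0.73 (SE 0.11, adjusted p = 0.00447) and Irf1, a factor induced by interferon, by 0.31 (SE 0.09, adjusted p = 0.0366). Rhob, a small GTPase, fell by 0.78 (SE 0.07, adjusted p = 0.000565), Sik1, a kinase that holds back CREB coactivators, by 0.68 (SE 0.13, adjusted p = 0.00974), and Mcl1, a survival protein, by 0.27 (SE 0.07, adjusted p = 0.0245). These genes moved in either direction. The replicate block brought 10 of the 20 past the threshold (30.3% of all genes), and dropping the libraries numbered 0 brought 11 (41.4%). The count fell to 2 if control replicate 1 or 2 was left out, and to 3 if shRNA1 replicate 2 (14.2% of all genes) or replicate 1 or 2 of shRNA2 (12.2% and 12.3%) was.

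Of 29 measured kinases and factors upstream of immediate early genes 5 rose and 2 fell, with a median of 0.03. With each hairpin alone 2 rose and 2 fell, beside 6.92% and 5.49% of all genes with shRNA1 and 7.27% and 5.67% with shRNA2. Mef2d, a MEF2 factor that acts on the Nr4a1 promoter in other cells, rose by 0.35 (SE 0.08, adjusted p = 0.0205). Crem, a modulator of cAMP response elements, rose by 0.45 (SE 0.11, adjusted p = 0.0274) and Mapk9, which encodes JNK2, by 0.26 (SE 0.07, adjusted p = 0.0263). Elk1, an ETS partner of SRF, and Mapkapk2, a kinase downstream of p38, also rose, by 0.26 and 0.21 (adjusted p = 0.0374 and 0.0316), and were named after their values were seen. Mapk14, which encodes p38 alpha, fell by 0.41 (SE 0.08, adjusted p = 0.00968) and Mrtfb, an SRF coactivator, by 0.56 (SE 0.12, adjusted p = 0.0151). The block gave 9 of the 29, and 12 passed without the libraries numbered 0, against 30.3% and 41.4% of all genes. None of the 29 passed without control replicate 1 or 2 (5.72% and 5.86% of all genes), and 4 passed without shRNA1 replicate 1 (14.8%) or shRNA2 replicate 1 (12.2%).

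Of 17 measured genes of negative feedback 1 rose and 1 fell, with a median of 0.19. With shRNA1 alone 0 rose and 1 fell (6.92% and 5.49% of all genes). With shRNA2 alone 1 rose and 0 fell (7.27% and 5.67%). Zfp36l1, which speeds decay of AU-rich messages, rose by 0.66 (SE 0.17, adjusted p = 0.0253), and Fbxw7, which marks Jun and Myc for destruction, fell by 0.38 (SE 0.11, adjusted p = 0.0403). Dusp4, Btg2 and Zfp36 were at -0.61, 0.69 and 0.47 (adjusted p = 0.0665, 0.0955 and 0.161); with the replicate block these 3 passed (adjusted p = 0.00148, 0.0051 and 0.0386). The replicate block gave 7 of the 17 (30.3% of all genes) and dropping the libraries numbered 0 gave 10 (41.4%). None passed without control replicate 0 (1504 of all 10762 genes), control replicate 1 (5.72%) or shRNA2 replicate 1 (12.2%). The count was 1 without control replicate 2, shRNA1 replicate 1 or shRNA2 replicate 2 (5.86%, 14.8% and 12.3%), and 4 without shRNA1 replicate 0 (24.5%).

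Of 21 measured genes known as targets of AP-1, EGR or SRF 2 rose and 5 fell, and the median was -0.18. With shRNA1 alone 2 rose and 3 fell (6.92% and 5.49% of all genes). With shRNA2 alone 1 rose and 6 fell (7.27% and 5.67%). Ccn2, a matricellular protein, fell by 2.54 (SE 0.18, adjusted p = 0.000254), Ccnd1, the G1 cyclin, by 0.71 (SE 0.08, adjusted p = 0.00123), Hmga2, a chromatin protein, by 0.78 (SE 0.11, adjusted p = 0.00331) and the cytokine Lif by 1.41 (SE 0.30, adjusted p = 0.0141). Vegfa, the blood vessel growth factor, rose by 0.84 (SE 0.12, adjusted p = 0.00327). Hmox1, the heme oxygenase of the oxidative stress response, rose by 0.53 and Hmga1, a chromatin protein, fell by 0.29 (adjusted p = 0.0251 and 0.0382), both named after their values were seen. The count was 12 of 21 with the replicate block (30.3% of all genes), 16 after dropping the libraries numbered 0 (41.4%), and 4 when control replicate 1 or 2 was left out (5.72% and 5.86%). Of the RXR receptors, which pair with some NR4A proteins, Rxrb rose by 0.26 (SE 0.08, adjusted p = 0.0484) and Rxra was at -0.13 (adjusted p = 0.407).

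**Figure D4:**
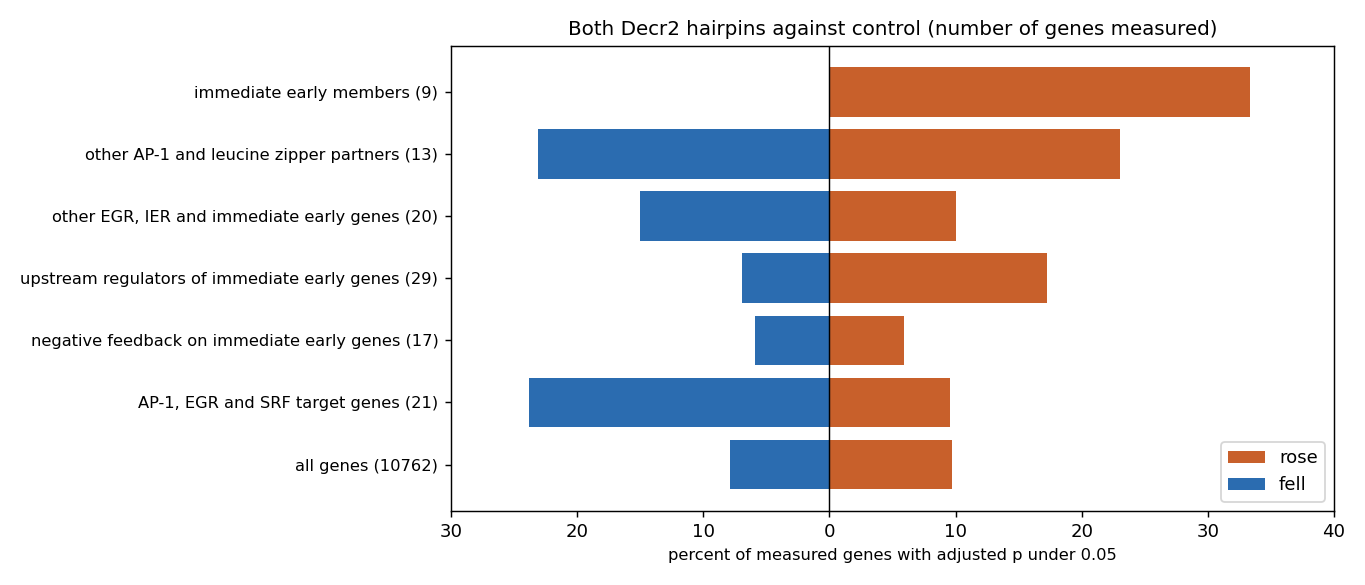
Percent of measured genes that rose (right) or fell (left) at an adjusted p under 0.05 in both hairpins against control, for the immediate early genes, each related list and all genes, with the number measured in parentheses. Of the 9 immediate early genes 3 rose and 0 fell, while each related list drawn holds genes that passed in either direction.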

How the data were processed

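Messenger RNA of 9 libraries (3 groups of 3) was read from 1 table of log2 values per gene and library that the authors deposited. Per the submitters' processing notes kallisto, FastQC and limma were used, without versions; the genome build is not given in the sources used here. Raised to the power of 2, the deposited values summed to between 969465 and 1045849 per library. The authors' deposited table also holds log2 fold changes, p-values and moderated t scores. Depth is unknown, so errors are the spread between libraries.

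Column codes do not spell out the Decr2 hairpin. It was read from the authors' headed comparisons: 99.95% and 99.7% of the fold changes headed shRNA1 and shRNA2 lay within 0.05 of the difference assigned here. If those headings were exchanged, so would be the hairpin names.

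All genes were fitted with limma 3.58.1 in R 4.3.3 (group means, intensity trend, 9 libraries), with Benjamini-Hochberg adjustment over 10762 genes and a threshold of 0.05, and the fit was tested on simulated data. The members and lists were chosen with earlier results of these data known. From each list up to 5 genes by smallest adjusted p in the average of both hairpins were named. Deviations from group means correlated at 0.126 to 0.644 for all 9 same-digit pairs, all over 0.1. A replicate block that treats the digits as pairing the libraries was therefore run as an alternative. The reported fit did not pair the libraries. Taking the digits as pairs rests on the data, not on the labels. Pairs of different digits ran from -0.629 to 0.531, and 1 such pair of digits 1 and 2 (shRNA1 replicate 1 with shRNA2 replicate 2) gave 0.531, so the check separates library 0 and does not tell digit 1 from digit 2. Symbols of 10759 genes came from Ensembl identifiers. Gene coordinates are GENCODE M21, which may differ from the authors' build. Alternatives were a replicate block, only the groups compared, the lowest 25% of genes removed, a pseudocount of 1, centred libraries, no trend, each library left out and the libraries numbered 0 left out.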

Additional observations from a re-analysis of the deposited data

Results flagged for a closer look

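Nr4a1 differed between the hairpins, the shRNA2 line standing at -0.53 on the log2 scale relative to the shRNA1 line (limma, adjusted p = 0.0477). It is listed because the 2 hairpin lines moved by different amounts from the same controls, and 3 of 3 shRNA2 libraries lay below all shRNA1 libraries. Decr2 also differed between the lines, at -1.66 (adjusted p = 0.0233), with 3 of 3 shRNA2 libraries below all shRNA1 libraries. Neither call held with only the groups compared. With 1 library left out the Decr2 call held in 2 of 9 fits (adjusted p from 0.0355 to 0.137), and that of Nr4a1 in 1 of 9 (0.0442 to 0.238).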

How the results depend on the processing

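Nr4a1 with shRNA1 and in the average of both hairpins kept its direction and its call under every alternative tried. The replicate block raised the number of members called to 5 with shRNA1, 3 with shRNA2 and 5 in the average, and it left 1 between the hairpins. The share of all genes called rose as well. It went from 12.4% to 24.6%, 12.9% to 24.0%, 17.6% to 30.3% and 0.455% to 1.87% in the same order. In the average the block called 10 other immediate early genes, 7 feedback genes and 12 targets. The block changed no other call among the members. Without the libraries numbered 0 the numbers of members were 7, 3 and 5, with 4 between the hairpins (Nr4a1, Nr4a2, Jun and Jund). Of all genes 34.5%, 37.3%, 41.4% and 8.87% passed there, in the same order. In the average without these libraries, 11 other immediate early genes, 12 upstream regulators, 10 feedback genes and 16 targets passed. Removing the lowest 25% of genes took out Egr1, Fos, Junb, Nr4a2 and Decr2. In the average it left 3 leucine zipper partners and 3 other immediate early genes called, beside 1399 of the 8071 genes kept. Between the hairpins 0 members passed with only the groups compared or with no intensity trend; in the reported fit 1 of the 9 had an unadjusted p under 0.05 there, beside 10.0% of all genes. For the average, a fit with only the groups compared is the reported fit and was not repeated.

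With 1 library left out, the members called ran from 1 to 4 with shRNA1, 0 to 3 with shRNA2, 1 to 4 in the average and 0 to 1 between the hairpins. Over all genes the calls ran from 328 to 1579, 406 to 2450, 616 to 2642 and 3 to 94 in the same order, so calls were lost and gained across the whole table. The lists ran from 1 to 7 (leucine zipper partners), 2 to 7 (other immediate early genes), 0 to 9 (upstream), 0 to 4 (feedback) and 4 to 9 (targets). Changes near 0 turned sign in these fits. Jund ran from -0.42 to 0.069 with shRNA1, -0.093 to 0.41 with shRNA2 and -0.26 to 0.23 in the average. Jun ran from -0.10 to 0.15 with shRNA2 and -0.20 to 0.043 in the average. Between the hairpins Fos ran from -0.30 to 0.11, Nr4a3 from -0.44 to 0.15 and Ier2 from -0.12 to 0.051. Without the libraries numbered 0, Jun turned to -0.015 with shRNA2, Jund to -0.20 in the average and Ier2 to 0.12 between the hairpins. The causes were not tested. With 3 libraries per group and no read counts, changes of Fos and Ier2 of the size seen could not be separated from the spread in the reported fit.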
